A study of Rattus norvegicus with 16 samples.

Results

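The respiratory chain subunits were followed in the distal sciatic nerve of the rat after a resection that severs its axons. The genes were chosen by symbol alone: subunits of NADH dehydrogenase (Nduf genes of the a, b, c, s and v series), succinate dehydrogenase (Sdha to Sdhd), cytochrome bc1 (Uqcr genes), cytochrome c oxidase (Cox4 to Cox8) and ATP synthase (Atp5 genes). The rule found 90 of the 18166 genes tested. They comprised 39 genes of complex I, 4 of complex II, 9 of complex III, 18 of complex IV and 20 of complex V. Of the 90, 74 were named subunit genes and 16 were copies or pseudogenes, whose probe sets may also take up signal from the parent gene. Where a gene had several probe sets, the brightest was used. All values are on the log2 scale of the robust multichip average (RMA) of an Affymetrix rat gene array, so a change of 1 is 2-fold.

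All nerves came from male Sprague Dawley rats at 6 weeks of age. One sciatic nerve was resected and its distal end tucked away so that axons could not regrow, and the distal nerve was taken at 3 or 7 days post-injury (DPI). The uninjured nerve of the other leg of injured animals was the control on each day, so the control nerves also came from operated animals. The design thus has 4 groups, named here by side and day, with 4 arrays described as biological replicates in each. The labels do not say which injured and contralateral nerves shared an animal.

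The respiratory chain is a series of protein complexes in the inner mitochondrial membrane. Complexes I and II pass electrons from NADH and succinate to ubiquinone, complex III passes them to cytochrome c, and complex IV passes them to oxygen, while complexes I, III and IV pump protons whose return through complex V drives ATP synthesis. Most subunits are encoded in the nucleus, and those encoded in mitochondrial DNA do not match the rule. In a nerve, such mRNAs come mainly from Schwann cells, mesenchymal cells, vessels and immune cells, since the cell bodies of the axons lie elsewhere.

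Cox5b, a subunit of cytochrome c oxidase, had the highest injury change of the 90 genes on both days, and Ndufv2 and Ndufs4, subunits of the NADH-oxidising end of complex I, were the lowest pair at 3 DPI. The other gene on which the results turn is Cox5a, the one member whose change differed between the days. The 250 bases upstream of the annotated start of these 4 genes are shown because the members with the opposite changes belong to one pathway. They are RefSeq sequences of the rat build GRCr8, for Cox5b at chr9:46417587-46417836 (plus strand), Cox5a at chr8:66818034-66818283 (plus strand), Ndufv2 at chr9:113157521-113157770 (minus strand) and Ndufs4 at chr2:47794915-47795164 (minus strand). Capitals mark a match to all the motif letters CCGGAAG, one form of the site bound by ETS factors such as GABPA. Partial matches are not marked.
Cox5b: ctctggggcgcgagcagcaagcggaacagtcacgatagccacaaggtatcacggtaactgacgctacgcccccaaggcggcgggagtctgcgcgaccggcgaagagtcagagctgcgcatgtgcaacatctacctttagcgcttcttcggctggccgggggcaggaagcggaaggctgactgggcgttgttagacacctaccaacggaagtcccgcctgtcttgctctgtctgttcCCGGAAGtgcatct
Cox5a: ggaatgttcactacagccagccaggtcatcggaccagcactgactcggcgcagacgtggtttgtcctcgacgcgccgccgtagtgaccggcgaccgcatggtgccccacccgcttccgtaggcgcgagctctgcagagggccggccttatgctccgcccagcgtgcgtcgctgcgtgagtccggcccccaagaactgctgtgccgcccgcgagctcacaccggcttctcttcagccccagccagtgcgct
Ndufv2: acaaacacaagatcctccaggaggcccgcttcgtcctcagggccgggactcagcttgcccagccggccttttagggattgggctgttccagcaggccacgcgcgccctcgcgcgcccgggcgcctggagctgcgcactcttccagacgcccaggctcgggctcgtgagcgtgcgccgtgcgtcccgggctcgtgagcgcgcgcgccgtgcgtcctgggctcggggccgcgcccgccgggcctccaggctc
Ndufs4: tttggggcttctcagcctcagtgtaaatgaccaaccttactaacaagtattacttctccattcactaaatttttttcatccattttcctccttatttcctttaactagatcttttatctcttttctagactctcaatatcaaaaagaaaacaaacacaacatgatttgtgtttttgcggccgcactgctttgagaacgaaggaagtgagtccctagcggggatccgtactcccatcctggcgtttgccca
GC content was 61.2% for Cox5b, 68.0% for Cox5a, 74.0% for Ndufv2 and 40.4% for Ndufs4. Both strands were searched for CCGGAAG, for GCGCA followed by any base and GCGC (the NRF1 motif) and for AANATGGC (a YY1 motif). Among the 66 named subunit genes with an upstream sequence, 27.3% held CCGGAAG, compared with 7.74% of all 27457 upstream sequences of this length. The NRF1 motif was present in 15.2% of the subunit genes and 4.17% of all upstream sequences, and the YY1 motif in 12.1% and 4.32%. The full set of upstream sequences was not limited to the genes tested on the array and was not matched to the subunit genes in level. Of the subunit genes higher at 3 DPI, 7 of 26 held CCGGAAG, and of those lower, 1 of 7 did. These are matches of letters and not measured binding.

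The probe sets of the respiratory chain genes were mostly bright. The mean level of the 74 named subunit genes ranged from 4.05 to 11.32 with a median of 9.13, whereas the median of all genes was 6.98. Of the 90 members, 82 lay above the dimmest 30% of genes, and no filter on level was applied, so all 90 were tested.

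At 3 DPI, respiratory chain genes moved in both directions, mostly by less than 2-fold. In a limma fit to all 18166 genes and 16 arrays with Benjamini-Hochberg adjustment over all genes (adjusted p under 0.05), 27 of the 90 members rose in injured nerve and 9 fell. Over all genes, 18.8% rose and 14.7% fell. The median change of the members was 0.06, and that of all genes was -0.01. Bright genes pass more often: of the 4794 genes at or above the lower quartile of the subunit levels (8.19), 34.5% rose and 24.9% fell. Of the named subunit genes, 36.5% rose and 9.46% fell. These shares include the subunit genes below that quartile, which are not among the bright genes, so the 2 sets are not alike in level. The number that rose also depended on scaling. With the arrays centred on their medians it was 17, with 11 lower, and after cyclic loess it was again 17 with 11 lower. Injured and contralateral arrays did not overlap for 28 members that were higher in injured nerve and 11 that were lower (19.3% and 14.6% of all genes). Only Cox5b rose by at least 2-fold (3.25% of all genes did) and only Ndufv2 fell by as much (2.55% of all genes).

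At 7 DPI, the balance was different in count: 8 members rose and 11 fell, and 71 did not pass. Over all genes, 19.1% rose and 13.0% fell. Among bright genes 35.9% rose and 20.2% fell, but 10.8% of the named subunit genes rose and 13.5% fell. The median change was 0.00, as it was for all genes. The split was 5 higher and 11 lower after median centring, and 3 higher and 18 lower after cyclic loess. In the other direction, 14 rose without the dimmest 30% of genes, 14 with trended and robust variance and 15 with the contralateral arrays of both days pooled, with 11, 11 and 13 lower. The arrays did not overlap for 13 members higher in injured nerve and 14 lower (18.9% and 12.8% of all genes). No member changed by 2-fold or more on this day, whereas 2.48% of all genes rose and 2.17% fell by that much. The number that rose was 5 without injured 7 DPI replicate 4 and 11 without contralateral 7 DPI replicate 2, and the number that fell was 7 without injured 7 DPI replicate 2.

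**Figure D1:**
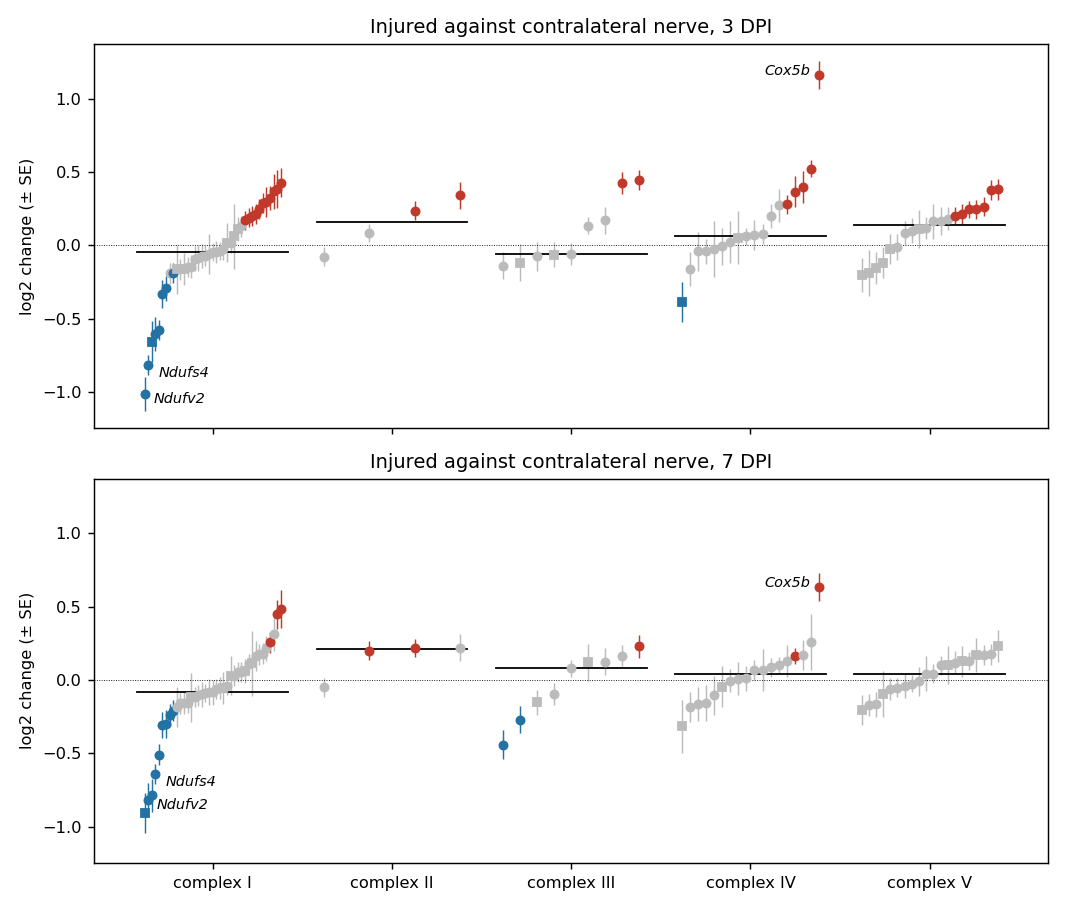
Log2 change of each member in injured against contralateral nerve at 3 DPI (top) and 7 DPI (bottom), by complex on the x axis and sorted within it; bars are ± SE, red passed as higher, blue passed as lower, grey did not pass, squares are copies or pseudogenes and black lines are medians. Complex I holds most of the lower genes on both days, and Cox5b stands above all others at 1.16 and 0.63.

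Complex I, which oxidises NADH and is the largest complex, had members that moved both ways. At 3 DPI, 11 of its 39 genes rose and 8 fell, with a median of -0.04, and at 7 DPI 3 rose and 9 fell, with a median of -0.08. It held 8 of the 9 members that fell at 3 DPI and 9 of the 11 that fell at 7 DPI. Complexes were assigned by symbol. Among the genes counted here, Ndufa4l2 and the copy Ndufb11b fell on both days, and Ndufa4 rose at 3 DPI. Of the complex I genes, 20.5% fell at 3 DPI and 23.1% at 7 DPI. Of all genes 14.7% and 13.0% fell, and of bright genes 24.9% and 20.2%. The share of complex I genes that rose was 28.2% and 7.69%. It was 18.8% and 19.1% for all genes, and 34.5% and 35.9% for bright genes. The complex I shares count its copies and pseudogenes, none of which rose on either day.

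Ndufv2 encodes an iron-sulfur subunit of the module that accepts electrons from NADH. Its values were 11.07, 11.15, 11.05 and 11.10 in contralateral 3 DPI nerve and 9.80, 10.35, 9.99 and 10.19 in injured 3 DPI nerve. At 7 DPI they were 10.94, 11.03, 11.14 and 11.01 in contralateral nerve and 9.96, 10.10, 10.51 and 10.28 in injured nerve. Every injured array lay below every contralateral array on both days. Ndufv2 fell on both days, with changes of -1.01 ± 0.12 (SE, n = 4 per group; 2.02-fold lower; limma adjusted p = 2.59e-06) at 3 DPI and -0.82 ± 0.12 (adjusted p = 3.38e-05) at 7 DPI.

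Ndufs4 encodes an accessory subunit that stabilises the same module. It measured 10.06, 10.10, 10.21 and 10.06 in contralateral and 9.20, 9.34, 9.30 and 9.32 in injured nerve at 3 DPI. The 7 DPI values were 9.96, 10.00, 10.11 and 9.99 in contralateral and 9.28, 9.27, 9.49 and 9.45 in injured nerve. The groups were again fully separated. The change was -0.82 ± 0.07 (limma adjusted p = 7.11e-08) at 3 DPI and -0.64 ± 0.07 (adjusted p = 1.67e-06) at 7 DPI.

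Other accessory and core subunits fell alongside. Ndufa5, an accessory subunit of the arm that reaches ubiquinone, changed by -0.58 ± 0.07 at 3 DPI and -0.51 ± 0.07 at 7 DPI. Ndufs3, a core subunit of that arm, changed by -0.33 ± 0.09 and -0.30 ± 0.09. Ndufa6, an accessory subunit, changed by -0.29 ± 0.09 and -0.31 ± 0.09. Injured and contralateral arrays of these 3 genes did not overlap on either day. Ndufa7, another accessory subunit, passed as lower at 3 DPI alone, with a mean of 9.03 in contralateral and 8.84 in injured nerve. Ndufb2 and Ndufb10, subunits of the membrane arm, passed as lower at 7 DPI alone (-0.21 and -0.24), while Ndufc2, also of the membrane arm, passed as higher on that day alone (0.26).

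Ndufa4l2 is a paralog of Ndufa4 known as a gene induced by hypoxia. It fell from 7.27, 7.37, 7.77 and 7.65 in contralateral to 6.81, 6.73, 7.06 and 7.05 in injured nerve at 3 DPI, and from 7.69, 7.76, 7.76 and 7.73 to 7.17, 6.98, 6.84 and 6.80 at 7 DPI. The groups did not overlap, and the changes were -0.60 ± 0.11 (limma adjusted p = 0.000448) and -0.79 ± 0.11 (adjusted p = 4.14e-05). Ndufa4 itself, now regarded as a subunit of complex IV, went the other way at 3 DPI. It read 10.89 to 11.01 in contralateral and 11.13 to 11.25 in injured nerve, a change of 0.25 ± 0.07 (limma adjusted p = 0.00954). That call was lost after median centring (adjusted p = 0.0568) and after cyclic loess (adjusted p = 0.0740). Its 7 DPI change was 0.17 ± 0.07 (adjusted p = 0.0680), which passed as higher in 4 of 19 alternatives.

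Some direct neighbours of Ndufv2 and Ndufs4 in the same module did not fall with them. Not all accessory subunits of complex I rose, as Ndufa7 passed as lower at 3 DPI and Ndufs6 and Ndufa2 passed on neither day. Ndufs1, the large iron-sulfur subunit, rose by 0.29 ± 0.07 at 3 DPI (limma adjusted p = 0.00392), from 8.87, 8.98, 8.92 and 8.89 to 9.07, 9.19, 9.21 and 9.33, with no overlap. Ndufv1, which binds NADH and its flavin cofactor, rose by 0.21 ± 0.07 at 3 DPI (adjusted p = 0.0226), but this call was lost under both other scalings, in a fit of the 2 groups alone, and without contralateral 3 DPI replicate 3 or injured 3 DPI replicate 2 or 4 (adjusted p between 0.0572 and 0.0848). Ndufa12, an accessory subunit of this region, rose on both days, by 0.43 ± 0.10 and 0.45 ± 0.10 (limma adjusted p = 0.00294 and 0.00235). Its injured arrays lay between 9.54 and 9.90 and its contralateral arrays between 9.07 and 9.43.

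Ndufv3, a small accessory subunit of the module, rose by 0.38 ± 0.13 at 3 DPI and by 0.49 ± 0.13 at 7 DPI. A second, dimmer Ndufv3 probe set differed by -0.03 and 0.07, so the probe sets of this gene disagreed, and with their mean the 3 DPI call was lost (limma adjusted p = 0.146). It was also lost under the other scalings and without contralateral 3 DPI replicate 1 or 3 or injured 3 DPI replicate 1, 2 or 3 (adjusted p between 0.0519 and 0.0884). Ndufb11b, a copy of Ndufb11, fell on both days (-0.66 ± 0.14 and -0.91 ± 0.14), whereas Ndufb11 rose by 0.19 ± 0.07 at 3 DPI and measured 0.05 ± 0.07 at 7 DPI.

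**Figure D2:**
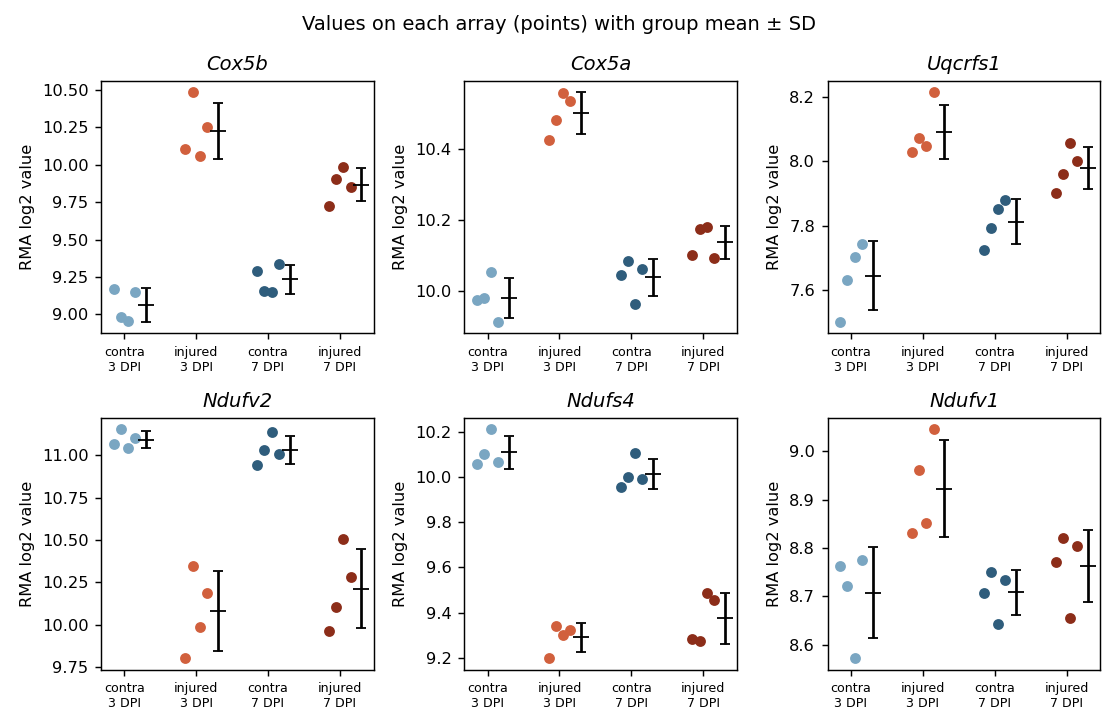
RMA log2 value of 6 members on each of the 16 arrays (points, coloured by group), with the group mean ± SD (n = 4) beside them; each panel has its own y axis. Cox5b, Cox5a and Uqcrfs1 were highest in injured 3 DPI nerve, whereas Ndufv2 and Ndufs4 were low in both injured groups and Ndufv1 differed by 0.21 at 3 DPI.

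Complex II, which links the citric acid cycle to the chain, had 2 higher and no lower members of 4 on each day. For comparison, 18.8% of all genes and 34.5% of bright genes rose at 3 DPI, and 19.1% and 35.9% at 7 DPI. With only 4 genes, a single call shifts the share of complex II widely, and its difference from these shares was not tested. Sdhb, the iron-sulfur subunit of complex II, rose by 0.24 ± 0.06 at 3 DPI (limma adjusted p = 0.00738) and 0.20 ± 0.06 at 7 DPI (adjusted p = 0.0229). The membrane anchor Sdhd rose by 0.34 ± 0.09 at 3 DPI (adjusted p = 0.00722), from 9.39, 9.22, 9.13 and 9.28 to 9.61, 9.61, 9.44 and 9.73. The other anchor, Sdhc, rose by 0.22 ± 0.06 at 7 DPI (adjusted p = 0.0128), from 10.05, 10.16, 10.17 and 10.14 to 10.30, 10.38, 10.35 and 10.36. The groups of Sdhd at 3 DPI and of Sdhc at 7 DPI did not overlap. Sdha, the catalytic flavoprotein, was at -0.08 ± 0.07 and -0.05 ± 0.07 and did not pass. The 7 DPI calls of Sdhb and Sdhc were lost after cyclic loess (limma adjusted p = 0.239 and 0.159), and that of Sdhb also after median centring, in a fit of the 2 groups alone, with the replicate number as a block and without injured 7 DPI replicate 4 (adjusted p between 0.0514 and 0.0787). Both calls were also lost without both contralateral 7 DPI replicates 1 and 2 (limma adjusted p = 0.0974 and 0.0936).

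Complex III, which reduces cytochrome c, had 2 higher and no lower member of 9 at 3 DPI, and 1 higher and 2 lower at 7 DPI. These 22.2% higher at 3 DPI compare with 18.8% of all genes and 34.5% of bright genes. The 22.2% lower at 7 DPI compare with 13.0% of all genes and 20.2% of bright genes. The complex III shares count its copies and pseudogenes, none of which passed on either day. The Rieske iron-sulfur protein Uqcrfs1 read 7.50, 7.63, 7.70 and 7.74 in contralateral and 8.03, 8.07, 8.05 and 8.21 in injured nerve at 3 DPI. It rose by 0.44 ± 0.07 (limma adjusted p = 7.28e-05) with no overlap, and at 7 DPI the change was 0.17 ± 0.07 (adjusted p = 0.0796). With the contralateral arrays of both days pooled, its 7 DPI change passed as higher (limma adjusted p = 0.00708). The core protein Uqcrc1 rose by 0.43 ± 0.08 at 3 DPI (adjusted p = 0.000277) and by 0.23 ± 0.08 at 7 DPI (adjusted p = 0.0292). The latter call was lost in 10 settings, among them both other scalings, the block, the 2 groups alone and the omission of contralateral 7 DPI replicate 1 or 3 or injured 7 DPI replicate 2, 3 or 4 (adjusted p between 0.0522 and 0.165).

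Opposite to these, the small subunits Uqcrb and Uqcr11 fell at 7 DPI. Uqcrb lies near the ubiquinone site, and its probe set was dim, at 6.29, 6.41, 6.54 and 6.02 in contralateral and 5.72, 5.83, 5.92 and 6.02 in injured nerve, so that the groups met at 6.02. The change was -0.44 ± 0.10 (limma adjusted p = 0.00209), and at 3 DPI it was -0.07 ± 0.10. Uqcr11 fell by 0.27 ± 0.09 at 7 DPI (adjusted p = 0.0321), a call lost without contralateral 7 DPI replicate 1, 2 or 4 or injured 7 DPI replicate 1 or 2 (adjusted p between 0.0517 and 0.101) and without both contralateral replicates 1 and 2 (0.213).

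Complex IV, the oxidase that uses oxygen, held the largest rise. At 3 DPI 5 of its 18 genes rose and 1 fell, and at 7 DPI 2 rose and none fell. The share that rose was 27.8% and then 11.1%, against 18.8% and 19.1% of all genes and 34.5% and 35.9% of bright genes. The complex IV shares count its copies and pseudogenes, none of which rose on either day. Cox5b, a nuclear-encoded structural subunit that binds zinc, measured 9.17, 8.98, 8.95 and 9.15 in contralateral 3 DPI and 10.10, 10.48, 10.06 and 10.25 in injured 3 DPI nerve. At 7 DPI it measured 9.29, 9.15, 9.15 and 9.34 in contralateral and 9.72, 9.90, 9.99 and 9.85 in injured nerve. Every injured array exceeded every contralateral array, and every injured 3 DPI array exceeded every injured 7 DPI array. Cox5b rose by 1.16 ± 0.09 (2.24-fold; limma adjusted p = 4.27e-08) at 3 DPI and by 0.63 ± 0.09 (1.55-fold; adjusted p = 5.23e-05) at 7 DPI. The effects of the days differed by -0.53 ± 0.13, with an adjusted p of 0.0560 (0.0238 to 0.153 over the alternatives).

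Cox5a, another nuclear-encoded structural subunit, rose at 3 DPI. Its values were 9.98, 9.98, 10.05 and 9.91 in contralateral and 10.43, 10.48, 10.56 and 10.54 in injured nerve at 3 DPI. At 7 DPI they were 10.04, 10.08, 9.96 and 10.06 in contralateral and 10.10, 10.17, 10.18 and 10.09 in injured nerve. The groups did not overlap on either day, but their distance at 7 DPI was small. Cox5a rose by 0.52 ± 0.06 at 3 DPI (limma adjusted p = 1.86e-06), and the 7 DPI change was 0.10 ± 0.06 (adjusted p = 0.221). A second probe set of different values changed by 0.54 and 0.10.

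In the test of the difference itself, the Cox5a effect was lower at 7 DPI than at 3 DPI by 0.42 ± 0.08 (limma adjusted p = 0.0144). No member was higher and 1 was lower in this comparison, against 0.771% and 0.947% of all genes. Over the alternatives the adjusted p of Cox5a lay between 0.00397 and 0.0752, and it missed the threshold with the replicate number as a block (0.0661) and without both contralateral 7 DPI replicates 1 and 2 (0.0752).

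Further oxidase subunits rose at 3 DPI and did not pass at 7 DPI. Cox4i1, the ubiquitous isoform of subunit 4, rose by 0.28 ± 0.06 (limma adjusted p = 0.00251). Cox7b rose by 0.37 ± 0.10 (adjusted p = 0.0104), and Cox6b2, an isoform known from testis, by 0.40 ± 0.11 (adjusted p = 0.00833). Their 7 DPI changes were 0.09, 0.17 and 0.13. Cox7a2l, which takes part in assembling supercomplexes, passed at 7 DPI by 0.16 ± 0.06 (adjusted p = 0.0382), but lost the call in 11 settings, among them both other scalings (adjusted p = 0.111 and 0.408), the block (adjusted p = 0.0702) and the omission of any 7 DPI array other than contralateral replicate 2 and injured replicate 1. Cox6c-ps1, a pseudogene of Cox6c, passed as lower at 3 DPI (-0.39 ± 0.14; adjusted p = 0.0410) and lost the call after cyclic loess and without contralateral 3 DPI replicate 3 or 4 or injured 3 DPI replicate 2, 3 or 4 (adjusted p between 0.0515 and 0.133).

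Beside Cox4i1, Cox6b2 and Cox7a2l, the other isoforms of complex IV gave the following values. Cox4i2, known from lung, changed by -0.16 ± 0.12 on each day and did not pass. Cox6a1 and Cox8a, the widespread forms, changed by 0.08 ± 0.07 and 0.20 ± 0.08 at 3 DPI and did not pass (limma adjusted p = 0.451 and 0.0655). Cox6b1 was at 0.27 ± 0.11 at 3 DPI (adjusted p = 0.0732). Cox8a and Cox6b1 each passed as higher at 3 DPI in 6 of 18 alternatives (limma adjusted p between 0.0107 and 0.0484). The muscle form Cox8b was at 0.02 ± 0.14 and 0.07 ± 0.14.

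Cox6a2, the heart and skeletal muscle form, read 7.85 in injured 7 DPI replicate 1, whereas replicates 2, 3 and 4 of that group read 6.56, 6.97 and 6.88. Its contralateral 7 DPI values were 7.10, 6.74, 6.75 and 6.62, and its change was 0.26 ± 0.19 (limma adjusted p = 0.346). The mean of 11 measured skeletal muscle markers was 8.76 in that same array, while its 3 fellow arrays gave 6.14 to 7.21, and the muscle creatine kinase gene Ckm read 9.31 there against 7.03 to 7.70. None of the 11 muscle markers passed at 7 DPI. Without that array 9 members rose and 8 fell at 7 DPI. The part of muscle RNA in the Cox6a2 value was not tested.

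**Figure D3:**
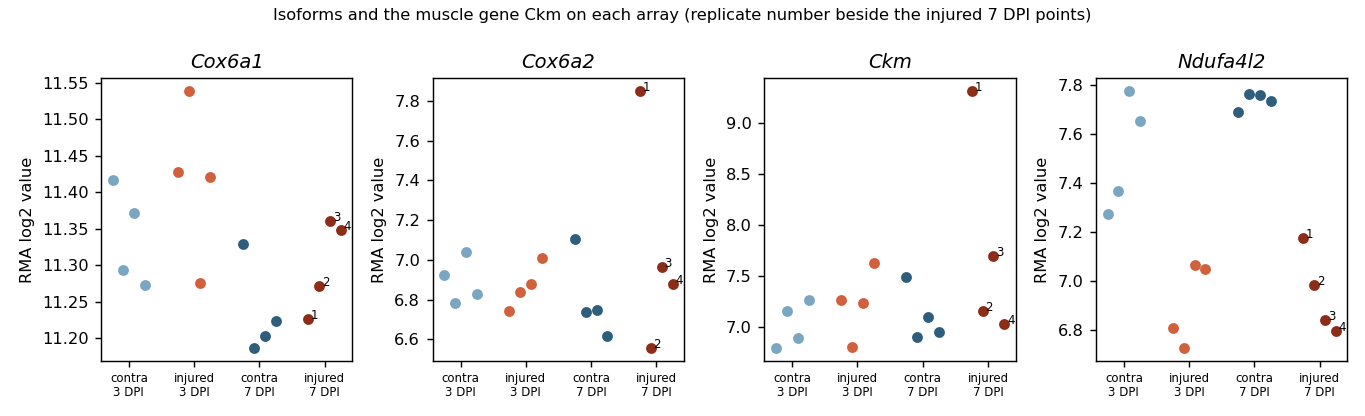
RMA log2 values of Cox6a1, Cox6a2, the muscle gene Ckm and Ndufa4l2 on each array by group, with the replicate number beside each injured 7 DPI point; each panel has its own y axis. Injured 7 DPI replicate 1 was the highest array for Cox6a2 (7.85) and Ckm (9.31) but not for Cox6a1, and Ndufa4l2 was lower in both injured groups.

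Complex V, the ATP synthase, had higher but no lower members at 3 DPI. Of its 20 genes, 7 rose, and all 7 were among the 14 named subunit genes, whose median change was 0.19. The 35.0% of complex V genes that rose compare with 18.8% of all genes and 34.5% of bright genes. This 35.0% counts the copies and pseudogenes of complex V, which all lay below the 8.19 at which the bright genes start. None of them rose. Among the 14 named subunit genes alone, 7 rose, a larger share than among bright genes. Of these 14, Atp5mf and Atp5pd also lay below that level. The alpha and beta subunit genes Atp5f1a and Atp5f1b rose by 0.27 ± 0.07 and 0.21 ± 0.07 (limma adjusted p = 0.00421 and 0.0174). Atp5f1d, of the central stalk, read 10.57, 10.41, 10.43 and 10.54 in contralateral and 10.90, 10.78, 10.85 and 10.95 in injured nerve, a rise of 0.38 ± 0.07 (adjusted p = 0.000336). Its groups did not overlap.

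Atp5if1, the inhibitor that keeps the enzyme from running in reverse, rose by 0.38 ± 0.07 at 3 DPI (limma adjusted p = 0.000394), from 9.82, 9.89, 9.69 and 9.74 to 10.25, 10.22, 10.02 and 10.18. Thus the genes of the inhibitor and of the alpha and beta subunits rose together in the main fit. Atp5pb of the peripheral stalk rose by 0.20 ± 0.06, Atp5mc3 of the membrane ring by 0.25 ± 0.06, and the small subunit Atp5mk by 0.25 ± 0.07. The calls of Atp5f1b and Atp5pb were lost after median centring (adjusted p = 0.0612 and 0.0686) and cyclic loess (0.155 and 0.109), and that of Atp5f1b also with the block (0.0607) and without injured 3 DPI replicate 2 (0.0604).

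At 7 DPI no complex V gene passed in either direction in the main limma fit. Atp5f1d and Atp5if1 passed as higher without the dimmest 30% of genes and with trended and robust variance (limma adjusted p between 0.0416 and 0.0453). Atp5f1d also passed without contralateral 7 DPI replicate 2 (adjusted p = 0.0433), and Atp5pb with the contralateral arrays of both days pooled (adjusted p = 0.0224). Atp5f1a and Atp5f1b were at 0.04 ± 0.07 and -0.05 ± 0.07, and Atp5f1d and Atp5if1 at 0.17 ± 0.07 and 0.18 ± 0.07 (limma adjusted p = 0.0716 for both). For none of the 4 did the test of the difference between the days pass (adjusted p between 0.201 and 0.384).

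**Figure D4:**
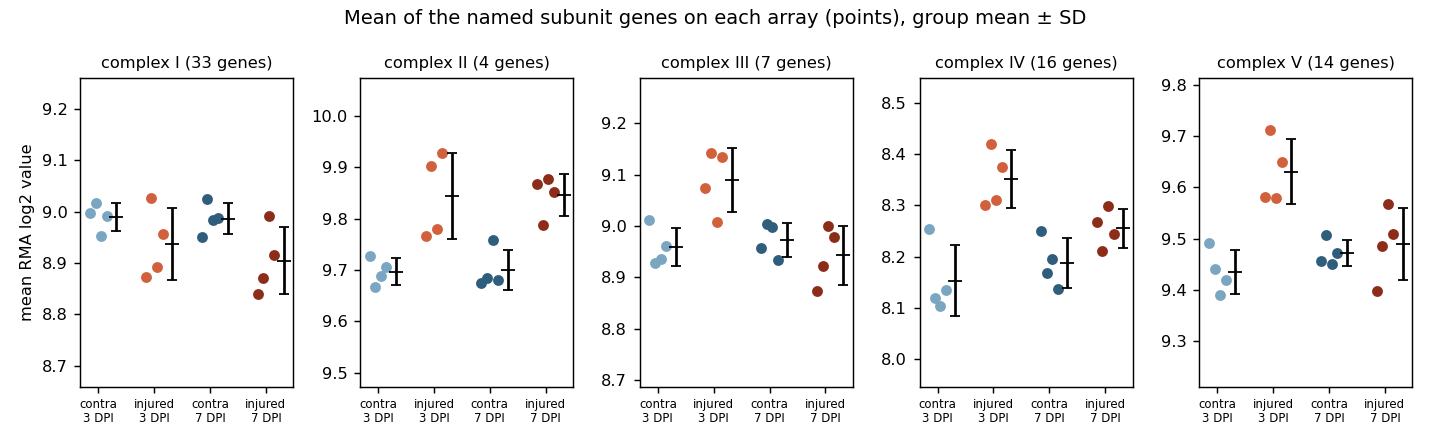
Mean RMA log2 value of the named subunit genes of each complex on every array (points) with the group mean ± SD (n = 4); all panels span the same distance on the y axis. In complexes II, IV and V the injured 3 DPI arrays all lay above the contralateral 3 DPI arrays, and at 7 DPI this held for complex II.

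Averaged over the named subunit genes, complex V read 9.39 to 9.49 on the contralateral and 9.58 to 9.71 on the injured 3 DPI arrays, and 9.45 to 9.51 and 9.40 to 9.57 at 7 DPI. Complex IV read 8.10 to 8.25 and 8.30 to 8.42 at 3 DPI, and 8.14 to 8.25 and 8.21 to 8.30 at 7 DPI. The complex I mean read 8.95 to 9.02 and 8.87 to 9.03 at 3 DPI, and 8.95 to 9.02 and 8.84 to 8.99 at 7 DPI. The group ranges thus met or overlapped at both times for complex I, and for complexes IV and V at 7 DPI. These means are descriptions and were not tested.

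The changes of the 90 members at 3 and 7 DPI, which were measured on different arrays, had a Pearson correlation of 0.825 across genes, which are not independent replicates. Cox5b, Ndufa12, Ndufv3, Sdhb and Uqcrc1 passed as higher on both days, and 22 members passed as higher at 3 DPI alone. Ndufa4l2, Ndufa5, Ndufa6, Ndufb11b, Ndufs3, Ndufs4 and Ndufv2 passed as lower on both days. Passing on one day and not on the other is not a difference between the days, and the difference itself passed for Cox5a alone.

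**Figure D5:**
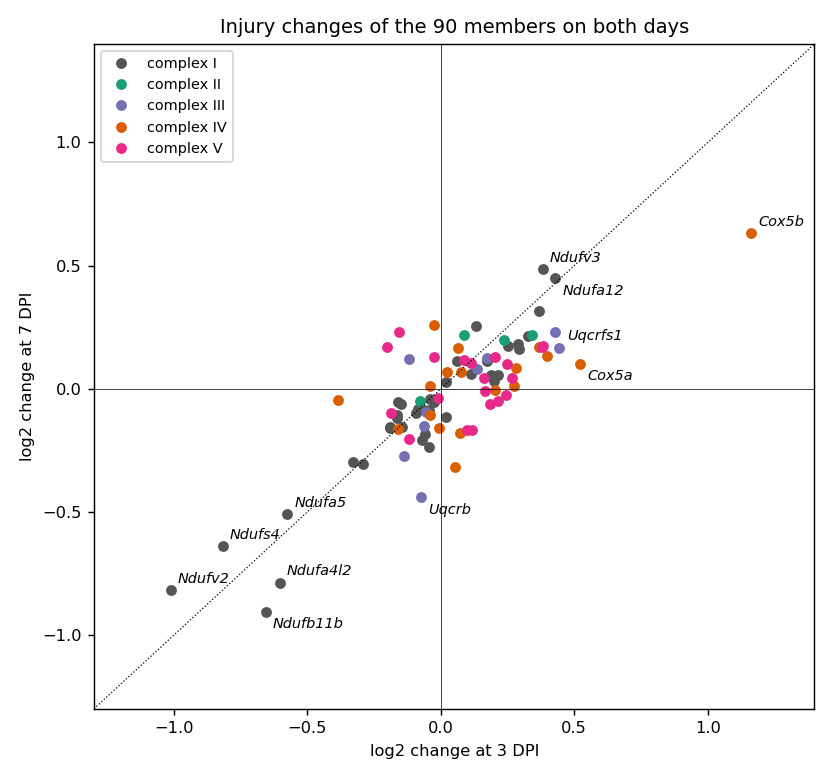
Log2 change in injured against contralateral nerve of each of the 90 members at 3 DPI (x axis) and 7 DPI (y axis), coloured by complex; the dotted line marks equal changes. Cox5b and Cox5a lie below the line on the right, at 0.63 and 0.10 on the y axis, and the complex I genes Ndufv2, Ndufs4 and Ndufa5 lie near it on the lower left.

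Directly between injured nerves, 4 members were lower at 7 than at 3 DPI and none was higher (1.78% and 2.23% of all genes). This comparison shares its arrays with those above. Cox5a differed by -0.36 ± 0.06 (limma adjusted p = 0.00144), Cox5b by -0.36 ± 0.09 (adjusted p = 0.0417), Atp5f1d by -0.29 ± 0.07 (adjusted p = 0.0237) and the ring subunit Atp5mc3 by -0.26 ± 0.06 (adjusted p = 0.0197). In a fit of the 2 injured groups alone 1 member was lower, and without injured 3 DPI replicate 4 likewise 1, while without injured 7 DPI replicate 2 it was 2. The Cox5b call was lost in 7 settings, with an adjusted p between 0.0187 and 0.119 over the alternatives, including the omission of injured 3 DPI replicate 2 or 4 or injured 7 DPI replicate 1, 2 or 4. That of Atp5f1d was lost without injured 3 DPI replicate 1 or 4 or injured 7 DPI replicate 3 (limma adjusted p between 0.0683 and 0.0773). The contralateral nerves of the 2 days differed for no member in limma (0.0550% of all genes were higher and 0.0165% lower), and the largest difference was 0.30.

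Genes that work with the chain moved as follows. Of 8 measured partners outside the rule, 4 rose and 1 fell on each day. They included cytochrome c (Cycs, 0.34 ± 0.10 at 3 DPI and 0.28 ± 0.10 at 7 DPI), the cytochrome c1 gene Cyc1 (0.28 ± 0.09 at 3 DPI) and the mitochondrial phosphate carrier Slc25a3 (0.56 ± 0.07 and 0.35 ± 0.07). Etfb, a subunit of the electron transfer flavoprotein, fell on both days (-0.27 ± 0.06 and -0.40 ± 0.06). Of 38 measured assembly factors, 7 rose and 10 fell at 3 DPI, and 4 rose and 7 fell at 7 DPI. At 3 DPI that was 18.4% higher, against 18.8% of all genes and 34.5% of bright genes. It was 26.3% lower, against 14.7% of all genes and 24.9% of bright genes. The assembly factors averaged 7.64 to 7.73 on the injured 3 DPI arrays, below the 8.19 at which the bright genes start. The complex I assembly factors Ndufaf2 and Nubpl fell at 3 DPI (-0.41 and -0.51), and Ndufaf4 rose by 0.32. Genes of the mitochondrial membranes and protein import moved mostly upwards. At 3 DPI 14 of 18 were higher and 2 lower (median 0.34), and at 7 DPI 10 were higher and 2 lower (median 0.27). The 77.8% and 55.6% higher compare with 18.8% and 19.1% of all genes and with 34.5% and 35.9% of bright genes.

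Markers of several cell types moved with injury at the same time. For comparison, 18.8% of all genes rose and 14.7% fell at 3 DPI, and 19.1% rose and 13.0% fell at 7 DPI. All 13 macrophage markers rose on both days, and their mean lay between 7.74 and 8.50 on contralateral and between 9.62 and 9.81 on injured arrays at 3 DPI, and between 8.21 and 8.58 and between 8.97 and 9.64 at 7 DPI. All 9 measured myelin genes fell on both days, with a mean between 12.15 and 12.40 on contralateral and between 9.20 and 9.60 on injured arrays at 3 DPI, and between 11.92 and 12.18 and between 7.89 and 8.22 at 7 DPI. All 9 measured cell division genes rose on both days, with means of 6.11 to 6.73 and 9.06 to 9.60 at 3 DPI. White adipocyte markers were highest on contralateral 7 DPI replicates 1 and 2 (means of 8.75 and 8.64), and 8 of the 10 passed as lower at 7 DPI. Of 6 measured endothelial markers, 5 passed as lower at 7 DPI, with means between 8.69 and 9.14 on contralateral and between 8.15 and 8.65 on injured arrays, and 2 were lower and 1 higher at 3 DPI. All 3 measured red blood cell genes passed as lower at 7 DPI, and 3 of 6 mural cell markers passed as lower at 3 DPI and 1 at 7 DPI. Of 7 measured Schwann cell markers, 1 rose and 2 fell at 3 DPI and 3 rose and 2 fell at 7 DPI, and of 9 mesenchymal markers 2 rose and 2 fell at 3 DPI and 2 rose and 3 fell at 7 DPI. Of 6 brown adipocyte markers, 1 rose and 1 fell at 3 DPI and 1 rose and 4 fell at 7 DPI. Without contralateral 7 DPI replicates 1 and 2, 4 members rose and 7 fell at 7 DPI. In whole nerve, fewer cells of a type and less RNA per cell cannot be told apart, and the part of these cell types in the changes of the respiratory chain genes was not tested.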

How the data were processed

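The authors extracted total RNA with TRIzol and a column kit, labelled cDNA for Affymetrix rat gene arrays, and background-corrected, quantile-normalised and summarised the probes with RMA in the oligo package. The deposited values are log2 expression per probe set. No oligo version and no genome build for the array are given in the sources used here. The value table of 36685 probe sets was named through the platform annotation, in which 18511 had 1 symbol, 575 several and 17599 none. Probe sets with several symbols were not used, which removed 8 that name a member, so Cox7a2, Ndufa3, Ndufa10, Atp5f1c and Atp5mc2 are not described. All 90 members matched RefSeq.

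Groups were compared with limma 3.58.1 in R 4.3.3 on 1 probe set a gene, in one fit of the 4 groups (12 residual degrees of freedom), with no filter on level, and the same code was tested on simulated data. The number of arrays limits the precision. Each limma p-value weighs a change against the spread between these samples within groups, moderated over all genes. The labels number replicates 1 to 4 in every group but do not say that a number marks an animal. Named genes were members at least 2-fold changed, the 2 lowest and 2 highest that passed in each complex, the 3 largest in each direction in the comparisons between days, isoform pairs and core subunits. Other genes with printed values were picked once their values were known. The members and lists were chosen with earlier results of these data known. Alternatives were a filter on dim genes, the mean over probe sets, 2 scalings, trended and robust variance, array weights, separate fits, pooled contralateral arrays, a replicate block, a 2-fold minimum and leaving out each array. Leaving out copies, leaving out both contralateral 7 DPI replicates 1 and 2, and the share among bright genes were added after seeing the data.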

Additional observations from a re-analysis of the deposited data

Results flagged for a closer look

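In 5 of 160 groups of 4 arrays checked, 1 array stood apart from the other 3; chance sets apart about 1 in 20 such groups. In contralateral 3 DPI nerve, replicate 1 read 10.79 for Atp5f1b against 10.67 to 10.69, and 8.66 for Uqcrc1 against 8.45 to 8.46. Cox4i2 read 6.72 in contralateral 7 DPI replicate 4 against 7.06 to 7.13. Cox7a2l read 9.66 in injured 7 DPI replicate 1 against 9.75 to 9.77. The complex II mean was 9.76 in contralateral 7 DPI replicate 3 against 9.67 to 9.69. The injury effects on Cox5a at 3 and 7 DPI, 0.52 and 0.10, differed by -0.42 in a test of the difference (limma adjusted p = 0.0144).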

How the results depend on the processing

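No named result changed its direction past the threshold. Of 40 named results that passed, 26 passed in every alternative and 14 lost the call in at least 1, and of 130 that did not pass, 11 passed in at least 1. At 3 DPI the count of higher members, 27, was 17 after median centring and 17 after cyclic loess. At 7 DPI the count of higher members, 8, was 14 without the dimmest 30% of genes, 14 with trended and robust variance, 15 with the contralateral arrays pooled, 5 after median centring, 3 after cyclic loess, 5 when only the injured and contralateral 7 DPI arrays were fitted and 4 without both contralateral 7 DPI replicates 1 and 2. The count of lower members at 7 DPI, 11, was 18 after cyclic loess and 7 without both of those arrays. For the difference between days the 1 lower member became 2 without the dimmest genes, 2 after cyclic loess and 2 with trended and robust variance, and 0 without both of those arrays. The 4 lower members between injured nerves became 1 in a fit of those groups alone. With a 2-fold minimum, 1 member was higher and 1 lower at 3 DPI, and 0 passed elsewhere. A fold minimum leaves no more calls by construction, and the cause of the other shifts was not tested. Leaving out 1 array gave 19 to 26 higher and 6 to 9 lower at 3 DPI, 5 to 11 higher and 7 to 12 lower at 7 DPI, 1 to 2 lower for the difference, 1 to 4 lower between injured nerves and 0 in the other counts. Over all genes the split of 3420 higher and 2664 lower at 3 DPI became 2956 and 3251 after median centring.

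Whether replicate numbers pair the samples could not be settled from so few weak correlations. Same-numbered deviations correlated between -0.06 and 0.22 at 3 DPI and between -0.08 and 0.17 at 7 DPI. Differently numbered ones lay between -0.18 and 0.10 at 3 DPI and between -0.19 and 0.11 at 7 DPI. The highest value on each day was same-numbered, but not every sample correlated best with its own number. With the number as a replicate block, 22 members were higher and 8 lower at 3 DPI, 7 and 10 at 7 DPI, 0 and 0 for the difference, 0 and 3 between injured nerves and 0 and 0 between contralateral nerves.

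Arrays give no read depth. The level of some probe sets, such as that of Uqcrb, lay below the median of all genes.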

Other observations

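Regulators of mitochondrial gene expression were measured alongside the subunits. Of 16 genes, 4 rose and 2 fell at 3 DPI, and 5 rose and 2 fell at 7 DPI. Of all genes, 18.8% rose and 14.7% fell at 3 DPI, and 19.1% rose and 13.0% fell at 7 DPI. Tfam, which packages mitochondrial DNA, rose by 0.23 ± 0.08 and 0.32 ± 0.08 (limma adjusted p = 0.0324 and 0.00428). Gabpa, an ETS factor, rose by 0.35 ± 0.10 and 0.31 ± 0.10 (adjusted p = 0.0113 and 0.0241). Nrf1 was at 0.14 ± 0.07 and 0.05 ± 0.07 and did not pass. The coactivator gene Ppargc1a was at -0.29 ± 0.15 at 3 DPI (adjusted p = 0.149) and fell by 0.51 ± 0.15 at 7 DPI (adjusted p = 0.0125). Tfb1m, a methyltransferase of mitochondrial ribosomal RNA, fell on both days (-1.72 ± 0.07 and -1.62 ± 0.07), more than any subunit gene on either day.

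Of 72 mitochondrial ribosomal protein genes, 19 rose and 7 fell at 3 DPI (median 0.11) and 12 rose and 5 fell at 7 DPI (median 0.07). The 26.4% and 16.7% that rose compare with 18.8% and 19.1% of all genes. Mrpl51 fell on both days (-1.03 and -0.70), and Mrpl3 rose by 0.61 and 0.62. Of 14 measured citric acid cycle genes, 3 rose and 4 fell at 3 DPI and 1 rose and 4 fell at 7 DPI. Thus 28.6% fell on each day, against 14.7% and 13.0% of all genes and 24.9% and 20.2% of bright genes. Dlst, of the oxoglutarate dehydrogenase complex, rose by 0.59 and 0.36, whereas the succinyl-CoA ligase gene Suclg2 fell on both days (-0.45 and -0.37).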
